A study of Rattus norvegicus with 6 samples.

Results

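Metalloproteinases and their inhibitors were examined in vascular smooth muscle (VSM) cells of young and old rats. The members were the genes of the count table named as matrix metalloproteinases (Mmp), as ADAM proteases (Adam), as the secreted ADAMTS proteases (Adamts) or ADAMTS-like proteins (Adamtsl), as tissue inhibitors of metalloproteinases (Timp), and Reck. These were 47 of 14475 genes, made up of 13 Mmp, 11 Adam, 14 Adamts, 5 Adamtsl and 3 Timp genes and Reck. The RefSeq annotation of the rat lists 82 protein-coding genes under the same names, and the other 35, among them Mmp13 and Timp4, were not analysed here. The cells had been grown in serum-containing medium from the soleus feed artery (SFA), a resistance artery upstream of the soleus muscle, of male Fischer 344 rats. Young rats were 4 months old and old rats were 24 months old, with 3 rats per group, 1 polyA RNA library per rat and no further treatment. Cultured cells had left the artery wall, so the values describe the cultures and not the vessel.

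Metalloproteinases are zinc-dependent enzymes that cut proteins outside the cell, and most are made as inactive precursors. The Mmp enzymes degrade matrix proteins, either as secreted enzymes or tethered to the cell surface. ADAM proteases release the outer part of membrane proteins, and ADAMTS proteases act on proteoglycans and procollagens of the matrix. TIMPs bind the active site and block it, and Reck is a membrane-anchored inhibitor. In arteries these enzymes are known for matrix turnover and for the migration of smooth muscle cells out of the media.

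Counts on genes totaled 44235674 to 59700887 per library. Even numbers made up 68.7% to 71.1% of the gene counts under 20 in each library, as would be left by counting the mates of a read pair separately, so that low counts may carry a larger counting error than their size shows. Each of the 47 members had at least 10 counts in all 6 libraries, from 10 to 245351, and 10 members had under 100 counts in at least 1 library. All 8 smooth muscle markers were present and lower in old cells, 7 of them at an unadjusted p under 0.05 (edgeR), and their summed level ran from 11207 to 20995 CPM (counts scaled to a common library size) in young and from 3448 to 5562 CPM in old libraries. Of 9 measured fibroblast markers, among them Dcn, Col14a1, Clec3b and Pdgfra, 8 were higher in old cells, 5 of them at an unadjusted p under 0.05, with summed levels of 748 to 1327 CPM in young and 1684 to 2712 CPM in old libraries. Mfap5, the marker that was lower, made up much of the young sum, with 607 ± 126 CPM in young and 544 ± 47.2 CPM in old (SD, n = 3). Of 29 markers of endothelial cells, macrophages, skeletal muscle and Schwann cells, 12 were in the table. In old cells 9 of the 12 were higher and 3 lower, although together they summed to 177 to 293 CPM in young and 118 to 132 CPM in old libraries. The 3 skeletal muscle markers, 2 higher and 1 lower, summed to 85.3 to 264 CPM in young and 28.1 to 47.2 CPM in old libraries. The marker that was lower, with a mean of 84.7 CPM over the 6 libraries, made up most of the young sum. Both measured Schwann cell markers were higher, with overlapping sums of 12.4 to 75.0 CPM in young and 54.1 to 85.2 CPM in old libraries. The other 17 of the 29, with the endothelial Cdh5 and the macrophage Ptprc among them, had no row in the table. The 3 measured pericyte markers of 5 listed summed to 258 to 522 CPM in young and 104 to 165 CPM in old libraries. In bulk cultures, fewer cells of a type and less RNA per cell cannot be told apart, and the part of these marker differences in the values below was not tested.

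Several matrix-degrading enzymes had more transcript in each old culture than in any young one, although the call depended on the test. The largest increase in mean level was that of Adamts15 (41.9-fold), followed by Adamts5 (4.95-fold), Mmp2 (3.05-fold) and Mmp14 (2.41-fold), while Mmp3 and Mmp25 were 3.56-fold and 2.02-fold lower in old cells. These 6 members, 12.8% of the 47, were differentially expressed genes (DEGs) in DESeq2, the test of the study, with the thresholds of the study, an adjusted p under 0.05 and a log2 fold change of 1 or more in either direction. DESeq2 called 5.56% of all genes under that rule. Higher in old cells were 4 members beside 2.25% of all genes, and lower were 2 members beside 3.31%. edgeR's quasi-likelihood test, the main test here, called 0 members, with adjusted p from 0.0531 to 0.995, and it called 0.00691% of all genes, which was 1 gene. limma-voom called 0 members and 0 genes, and the edgeR likelihood ratio test called 4 members beside 5% of all genes. At an adjusted p under 0.1, edgeR called 1 member, Adamts15, beside 2.63% of all genes. Before adjustment, 11 members (23.4%) had an edgeR p under 0.05, beside 22.6% of all genes. Of these 11, 9 were higher and 2 lower in old cells, where all genes divided into 11.2% higher and 11.5% lower.

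In 30 members the fitted level was higher in old cells and in 17 it was lower (31 and 16 with scaling by library size alone), and the median log2 fold change (old over young) was 0.20 over the members and 0.02 over all genes. The 3 old libraries did not overlap with the 3 young ones in 13 members, 27.7% of them, against 29.2% of all genes. Old libraries lay above young ones in 10 members (21.3%, beside 14.5% of all genes) and below them in 3 (6.38%, beside 14.7%). An exact permutation test of 3 against 3 libraries cannot give a two-sided p below 0.1.

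**Figure D1:**
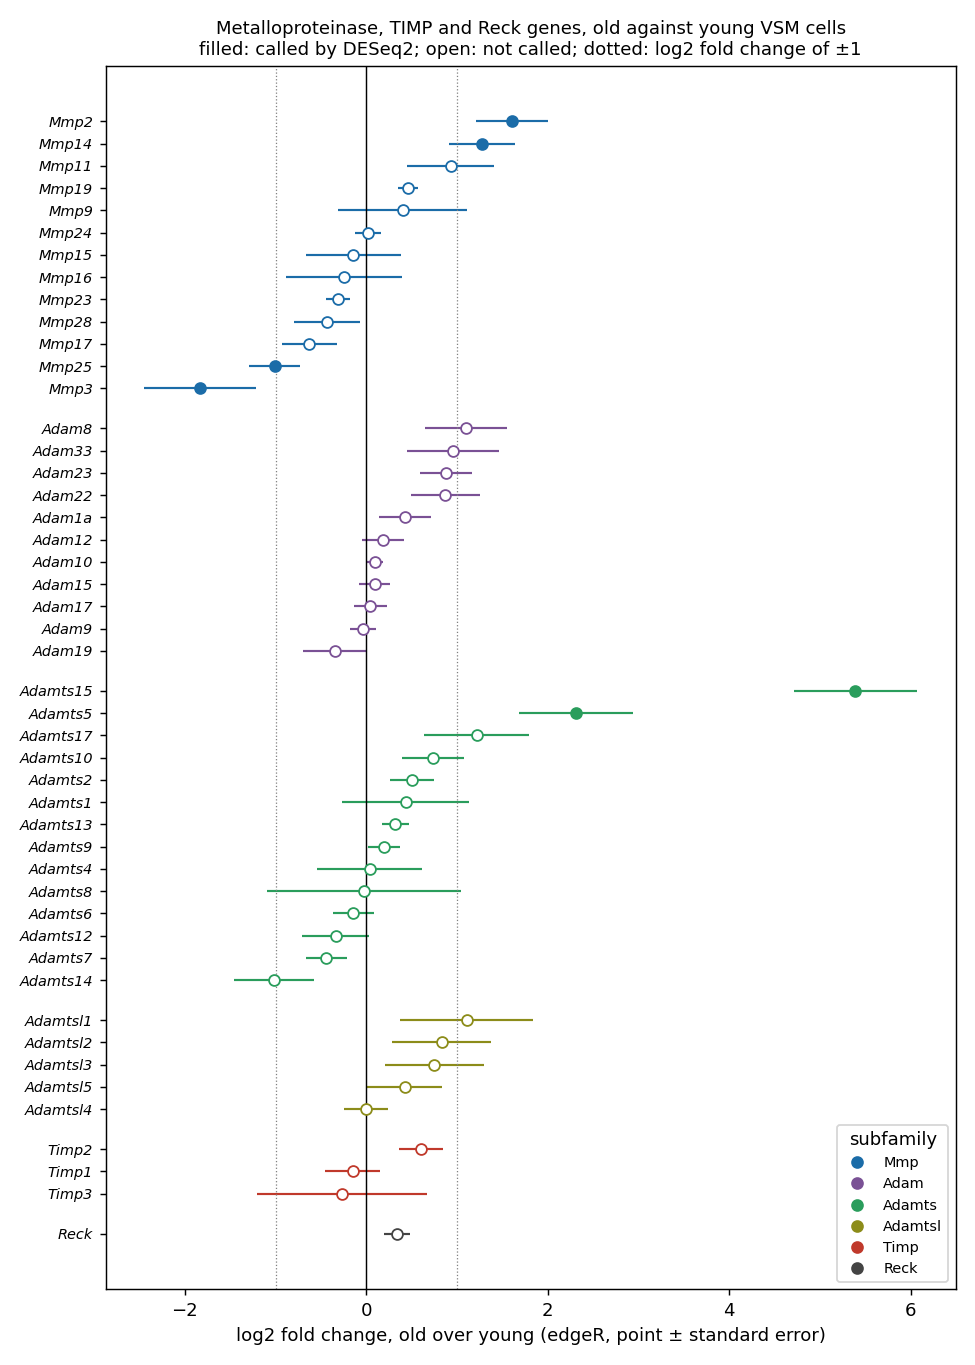
Log2 fold change (old over young, edgeR) of the 47 members on the horizontal axis, grouped by subfamily, with bars of 1 standard error, filled points for members called by DESeq2 and dotted lines at a log2 fold change of 1 in either direction. Adamts15 at 5.39 stands to the right of all other members, and Mmp3 at -1.83 is the lowest.

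Among the Mmp genes the 2 directions were nearly balanced, with 6 higher, 7 lower and a median log2 fold change of -0.14. Mmp2, the gelatinase that cuts denatured collagen and basement membrane collagen, had the highest count of any member, 245351 in old replicate 2. Its level was 1430, 1250 and 789 CPM in young replicates 1 to 3 and 1877, 4720 and 3973 CPM in old replicates 1 to 3. All old libraries lay above all young ones, and old replicate 1 was much nearer to the young cultures than the other old libraries. The means were 1156 ± 331 CPM in young and 3523 ± 1474 CPM in old (SD, n = 3), a 3.05-fold difference, and the log2 fold change of 1.61 ± 0.40 (SE) had an adjusted p of 0.108 in edgeR and 0.000812 in DESeq2, within a range of 5.46e-09 to 0.283 over the alternatives. DESeq2 called Mmp2 with any of the 6 libraries left out. Mmp9, the other gelatinase, was scarce, with 32 to 162 counts per library, and its groups overlapped (1.41 ± 0.978 CPM in young and 1.85 ± 1.24 CPM in old, SD, n = 3).

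Mmp14 is the transmembrane enzyme that activates the Mmp2 precursor at the cell surface with Timp2 as a bridging partner. It measured 414, 447 and 500 CPM in young and 628, 933 and 1724 CPM in old replicates 1 to 3. The young libraries were tightly grouped, the old ones were all higher, and old replicate 3 was far above the other old libraries. The 2.41-fold difference corresponded to a log2 fold change of 1.27 ± 0.36 (SE), with an adjusted p of 0.130 in edgeR and 0.00886 in DESeq2 (7.05e-06 to 0.317 over the alternatives). Without old replicate 3 the log2 fold change was 0.78, and the DESeq2 call was lost without that library and also without young replicate 1 or young replicate 2. The other transmembrane Mmp genes did not follow it: Mmp15, Mmp16 and Mmp24 had log2 fold changes of -0.14, -0.25 and 0.02. The groups overlapped in each, and Mmp15 had only 18 to 62 counts per library. Mmp16 measured 21.2, 36.5 and 37.5 CPM in young and 13.1, 11.4 and 55.7 CPM in old replicates 1 to 3. Its old replicate 3 was the highest library and its other old libraries were the lowest. Without old replicate 3, DESeq2 called Mmp16 as lower in old cells (log2 fold change -1.38, adjusted p 0.000553), whereas edgeR called 0 members.

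Both surface enzymes held by a GPI anchor, Mmp17 and Mmp25, had lower means in old cells. Mmp25, an enzyme known from leukocytes, measured 4.36, 3.36 and 3.15 CPM in young and 1.33, 2.25 and 1.81 CPM in old replicates 1 to 3. Every old value was below every young value. The log2 fold change of Mmp25 was -1.01 ± 0.28 (SE), with an adjusted p of 0.123 in edgeR and 0.0104 in DESeq2, and lay close to the fold threshold of 1. Leaving out old replicate 1, old replicate 3, young replicate 1 or young replicate 2 ended its DESeq2 call. Mmp17 was at 13.7 ± 4.50 CPM in young and 8.85 ± 2.40 CPM in old (SD, n = 3), with a log2 fold change of -0.63 ± 0.30 and overlapping groups.

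Mmp3, or stromelysin, degrades proteoglycans and basement membrane proteins and can activate other Mmp precursors. Its counts were low, with 106, 52 and 42 in young and 32, 14 and 12 in old replicates 1 to 3, which corresponded to 2.35, 0.864 and 0.855 CPM and to 0.643, 0.269 and 0.224 CPM. Old values were all below young ones, with young replicate 1 highest. A log2 fold change of -1.83 ± 0.61 (SE) had an adjusted p of 0.167 in edgeR and 0.0497 in DESeq2. The DESeq2 call rested on nearly every library, since with 1 library left out it held only in the absence of old replicate 1.

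The secreted Mmp19 had the smallest unadjusted p among the Mmp genes, 0.00515 in edgeR (adjusted p 0.104). It measured 99.9, 86.2 and 82.8 CPM in young and 113, 128 and 128 CPM in old replicates 1 to 3. The spread within each group was small and the groups did not overlap, but the 1.37-fold difference stayed under the fold threshold. Mmp23 measured 146, 148 and 137 CPM in young and 100.3, 137 and 109 CPM in old replicates 1 to 3, with means of 144 ± 5.91 and 116 ± 19.2 CPM (SD, n = 3), and only old replicate 2 overlapped with the young libraries. Mmp11 and Mmp28, both secreted and activated inside the cell by furin-type proteases, had log2 fold changes of 0.93 ± 0.48 and -0.43 ± 0.36 (SE) and overlapping groups.

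The 250 bases upstream of the first listed start in RefSeq (assembly GRCr8) were available for 35 of the 47 members. Those of Adamts15, Adamts5, Mmp2 and Mmp14, the members that were higher in DESeq2, were not available, so the promoter values below do not cover them. The sequences of Mmp25 and Mmp3, the members that were lower in DESeq2, are shown. They hold 57.2% and 38.8% G and C, beside a median of 54.8% over all promoters. Capitals mark the motifs searched on both strands, a GC box (GGGCGG) and, for Mmp3, an AP-1 site (TGANTCA) and a TATA box (TATAAA). The Mmp25 promoter lies at chr10:13180504-13180753 on the minus strand and the Mmp3 promoter at chr8:12925031-12925280 on the plus strand, and each reads 5′ to 3′ toward the gene.
Mmp25: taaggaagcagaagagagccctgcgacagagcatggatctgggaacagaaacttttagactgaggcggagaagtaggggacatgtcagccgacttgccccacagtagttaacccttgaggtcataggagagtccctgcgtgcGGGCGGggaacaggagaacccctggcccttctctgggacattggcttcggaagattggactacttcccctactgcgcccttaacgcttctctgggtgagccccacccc
Mmp3: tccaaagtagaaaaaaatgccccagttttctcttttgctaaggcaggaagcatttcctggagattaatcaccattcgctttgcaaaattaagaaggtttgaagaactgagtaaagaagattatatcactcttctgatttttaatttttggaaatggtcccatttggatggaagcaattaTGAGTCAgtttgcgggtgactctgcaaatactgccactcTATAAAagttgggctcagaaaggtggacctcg

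In the Mmp3 promoter the AP-1 letters lie 71 to 65 bases and the TATA letters 32 to 27 bases before the start, and in that of Mmp25 the GC box lies 108 to 103 bases before it. An AP-1 match was found in 2 of 35 member promoters, those of Adam19 and Mmp3 (5.71%), beside 5.82% of 19005 promoters of protein-coding genes. A GC box was found in 26 of 35 (74.3%) beside 40.3% of all promoters, where the median share of G and C was 66% for the members. The TATA letters were in 5 of 35 (14.3%) beside 12.3%, and a CArG box, the site of serum response factor in smooth muscle genes, was in 0 of 35 beside 1.52%. These matches describe letters in this window only. All 35 members were in the count table, whereas the 19005 promoters also included genes absent from it, so the shares compare unlike sets.

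**Figure D2:**
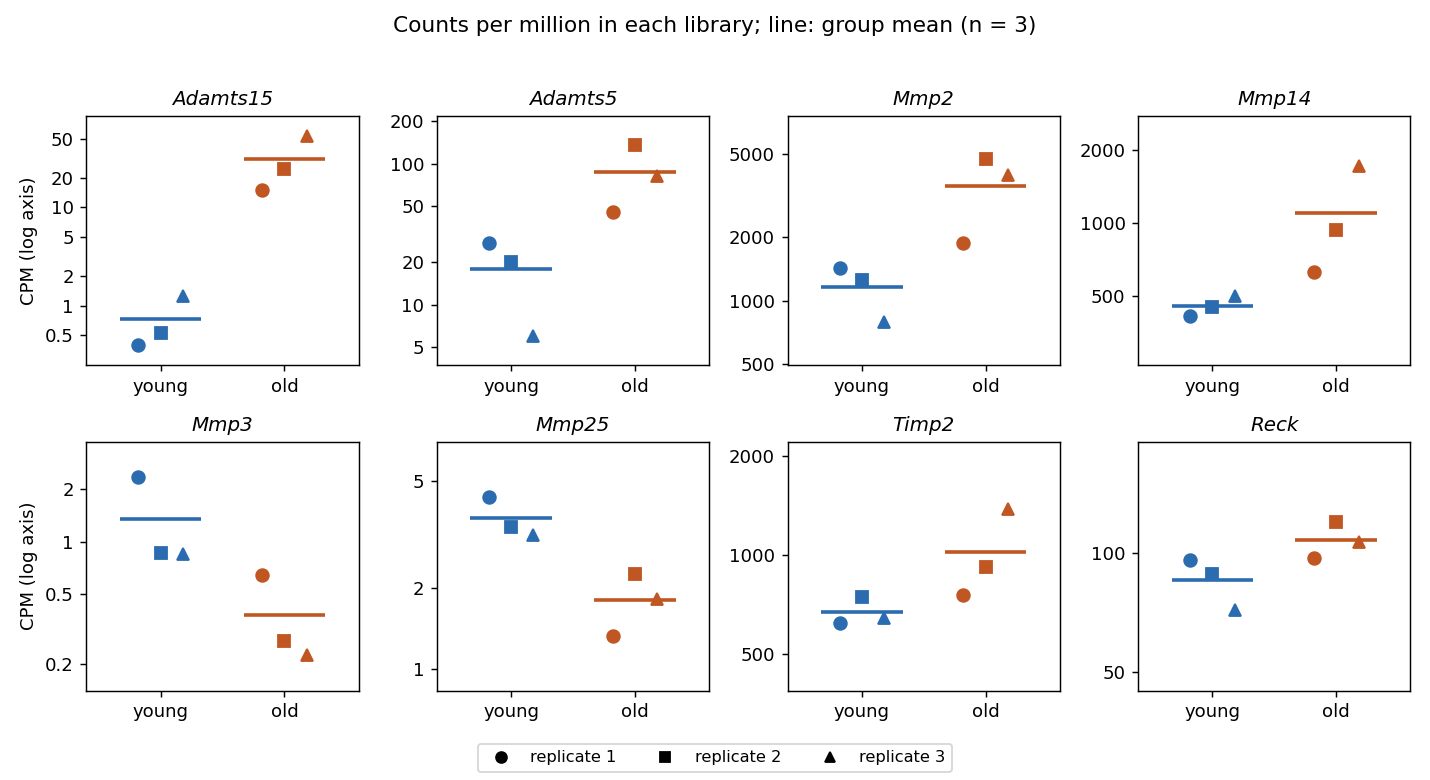
Level of 8 members in each library in CPM (log axis, own range per panel), with young libraries on the left, old ones on the right, a symbol for each replicate number and lines at the group mean (n = 3). Old libraries lie above young ones for Adamts15, Adamts5, Mmp2, Mmp14, Timp2 and Reck and below them for Mmp3 and Mmp25.

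The ADAM genes showed little difference where they are best known as sheddases. Adam10, which releases Notch receptors and cadherins, measured 88.4, 80.3 and 92.0 CPM in young and 93.8, 93.1 and 91.3 CPM in old replicates 1 to 3. Adam17, which releases tumor necrosis factor and ligands of the epidermal growth factor receptor, measured 122, 92.6 and 74.7 CPM in young and 96.2, 103 and 99.4 CPM in old. In each gene the old libraries fell together within or near the young range. The log2 fold changes were 0.09 ± 0.09 for Adam10 and 0.04 ± 0.18 for Adam17 (SE), and that of Adam17 changed sign without young replicate 3, to -0.11.

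Adam12 and Adam19, catalytic members with roles in growth factor shedding, had the highest counts of the subfamily. Adam12 measured 1886, 1397 and 1645 CPM in young and 1987, 1353 and 2248 CPM in old replicates 1 to 3. For Adam19 the values were 883, 858 and 1394 CPM in young and 881, 476 and 1113 CPM in old. Neither pair of groups separated, and the log2 fold changes were 0.18 ± 0.23 and -0.34 ± 0.35 (SE). Adam9 measured 94.7, 93.9 and 120.5 CPM in young and 92.4, 113 and 94.9 CPM in old replicates 1 to 3, also with overlap.

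Over the 11 Adam genes, 9 were higher and 2 lower in old cells, with 0.18 as their median log2 fold change. edgeR and DESeq2 called 0 of them, beside 0.00691% and 5.56% of all genes. Adam8 and Adam23 had an edgeR p under 0.05 before adjustment, as did 22.6% of all genes. Adam23, an adhesion protein that lacks protease activity, measured 28.1, 30.5 and 36.5 CPM in young and 46.8, 42.1 and 86.1 CPM in old replicates 1 to 3, so all old values were higher, with replicate 3 above the rest. Its log2 fold change of 0.88 ± 0.29 (SE) had an adjusted p of 0.161 in edgeR and 0.0465 in DESeq2, below the fold threshold. Adam8, a protease known from myeloid cells, was near the lower end of detection with 16 to 31 counts in young and 26 to 78 in old libraries. It measured 0.510, 0.515 and 0.326 CPM in young and 0.523, 0.923 and 1.46 CPM in old replicates 1 to 3, so old replicate 1 barely exceeded the highest young library. For Adam8 the log2 fold change was 1.10 ± 0.45 (SE), with an adjusted p of 0.218 in edgeR and 0.177 in DESeq2. Adam22, also without protease activity, and Adam33 had log2 fold changes of 0.87 ± 0.38 and 0.95 ± 0.51 (SE) with overlapping groups, Adam15 had 0.09 ± 0.17, and Adam1a, a protein of sperm, was at 1.52 ± 0.130 CPM in young and 2.05 ± 0.620 CPM in old (SD, n = 3).

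The ADAMTS genes held the 2 largest differences of all members. Adamts15, a protease of versican and aggrecan, had 18, 32 and 62 counts in young and 747, 1260 and 2829 counts in old replicates 1 to 3. These corresponded to 0.399, 0.532 and 1.26 CPM in young and 15.0, 24.2 and 52.8 CPM in old libraries. The gene was barely detected in young cultures, and the lowest old library was far above the highest young one. The group means of 0.731 ± 0.465 CPM and 30.7 ± 19.7 CPM (SD, n = 3) differed 41.9-fold. This log2 fold change of 5.39 ± 0.68 (SE) had an adjusted p of 0.0531 in edgeR, just above the threshold, of 1.74e-17 in DESeq2 and of 0.0791 in limma-voom, and it stayed between 4.74 and 6.02 with any library left out. DESeq2 called the gene in each of those 6 subsets.

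Adamts5, a major aggrecan-cleaving protease of cartilage and artery, measured 27.4, 20.0 and 5.96 CPM in young and 45.8, 136 and 82.1 CPM in old replicates 1 to 3. Old libraries were all higher, and young replicate 3 was well below the other young ones. The means of 17.8 ± 10.9 CPM and 88.1 ± 45.6 CPM (SD, n = 3) differed 4.95-fold, and the log2 fold change of 2.31 ± 0.63 (SE) had an adjusted p of 0.123 in edgeR and 0.00148 in DESeq2 (0.000287 to 0.300 over the alternatives). Like Adamts15, it was called by DESeq2 with any library left out.

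The remaining proteases of the proteoglycan-cleaving group did not share this pattern. Adamts1, which lies next to Adamts5 in the RefSeq annotation, measured 477, 430 and 160 CPM in young and 335, 158 and 952 CPM in old replicates 1 to 3. Its groups overlapped completely, and the log2 fold change of 0.44 ± 0.70 (SE) became -0.53 without old replicate 3. Adamts8, the neighbor of Adamts15, had 74, 74 and 45 counts in young and 164, 12 and 10 counts in old replicates 1 to 3. Old replicate 1 was thus the highest library and the other old libraries were the lowest. The log2 fold change of Adamts8 was -0.03 ± 1.07 (SE) over all libraries and -2.58 without old replicate 1, where edgeR's adjusted p was 0.0325 (2.3e-05 to 0.995 over the alternatives). Adamts4 and Adamts9 had log2 fold changes of 0.04 ± 0.58 and 0.20 ± 0.18. Over the 6 genes of this group, 5 were higher and 1 lower, with a median of 0.32.

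Of the procollagen N-propeptidases, which trim newly made fibrillar collagens, Adamts2 measured 85.0, 92.6 and 112 CPM in young and 98.0, 127 and 186 CPM in old replicates 1 to 3. Adamts14 measured 6.03, 5.83 and 14.2 CPM in young and 5.87, 4.06 and 2.93 CPM in old. The 2 genes had opposite signs, with log2 fold changes of 0.51 ± 0.25 and -1.02 ± 0.44 (SE), and overlapping groups. Adamts7 and Adamts12, proteases of cartilage oligomeric matrix protein, were both lower in mean in old cells. In Adamts7 the young libraries were nearly identical at 47.6, 48.4 and 48.8 CPM and the old ones were all lower at 23.2, 43.0 and 40.5 CPM, with a log2 fold change of -0.44 ± 0.23 (SE) and an adjusted p of 0.295 in edgeR. Adamts13, which cuts von Willebrand factor, lay slightly above the young range in every old library (8.54 ± 0.598 CPM and 10.7 ± 1.52 CPM, SD, n = 3), with an adjusted p of 0.257. Adamts6 measured 127, 102 and 106 CPM in young and 113, 122 and 68.3 CPM in old replicates 1 to 3, with no separation.

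Adamts10, a protein of microfibrils, measured 56.7, 64.1 and 69.4 CPM in young and 53.2, 128 and 136 CPM in old replicates 1 to 3. Old replicate 1 fell below all young libraries while the other old libraries were near each other and higher. The log2 fold change was 0.74 ± 0.34 (SE, adjusted p 0.252 in edgeR) and became 1.06 without old replicate 1, with an adjusted p of 0.0262 (8.15e-12 to 0.512 over the alternatives). Over the 14 Adamts genes, 9 were higher and 5 lower, with a median of 0.26. Adamts17 was near the detection limit at 0.326 ± 0.0941 CPM in young and 0.756 ± 0.464 CPM in old (SD, n = 3).

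The ADAMTS-like proteins lack a protease domain and bind fibrillin microfibrils. Of the 5, 4 were higher in old cells (5 with scaling by library size alone), and their median log2 fold change of 0.75 was the highest of the subfamilies, and 0 of 5 had groups that did not overlap, beside 29.2% of all genes. Adamtsl1 measured 142, 37.4 and 16.7 CPM in young and 166, 149 and 108 CPM in old replicates 1 to 3. Old libraries were alike and the young ones ranged widely, with young replicate 1 inside the old range. Its log2 fold change was 1.11 ± 0.73 (SE) and 2.38 without young replicate 1. Adamtsl3 measured 74.2, 66.4 and 26.0 CPM in young and 93.1, 40.4 and 147 CPM in old, and Adamtsl4 measured 160, 162 and 99.9 CPM in young and 106, 151 and 164 CPM in old, with a log2 fold change that rounded to 0. Adamtsl2 and Adamtsl5 had log2 fold changes of 0.83 ± 0.54 and 0.42 ± 0.41 (SE).

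**Figure D3:**
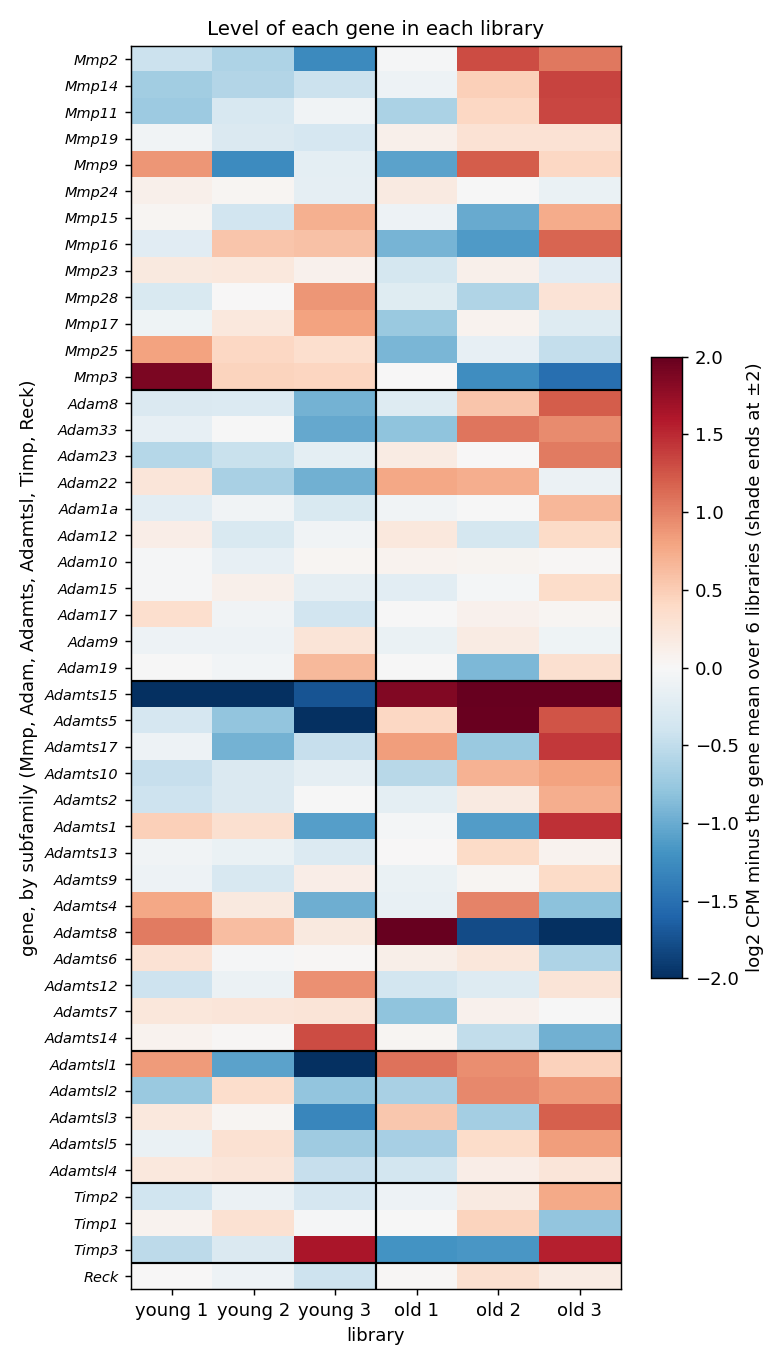
The 47 members by subfamily (rows) in the 6 libraries (columns), colored by the log2 CPM of a library minus the mean of that gene over all libraries, where the shade ends at 2 in either direction. Old replicate 1 was the lowest old library in 28 rows, and Timp3 is high in replicate 3 of each group.

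Of the 4 inhibitors, 0 were called by edgeR or DESeq2, beside 0.00691% and 5.56% of all genes. Timp2 and Reck reached an unadjusted p under 0.05 in edgeR, as did 22.6% of all genes, and Reck lay at the threshold with 0.04997. Timp2, which inhibits Mmp2 and also takes part in its activation by Mmp14, measured 620, 748 and 646 CPM in young and 758, 921 and 1380 CPM in old replicates 1 to 3. All old values were higher, but old replicate 1 exceeded the highest young library only slightly. Its log2 fold change of 0.60 ± 0.24 (SE) had an adjusted p of 0.208 in edgeR and of 0.104 in DESeq2, and it was 0.32 without old replicate 3. Reck measured 95.7, 88.4 and 71.6 CPM in young and 97.0, 119 and 107 CPM in old. Here too the groups separated narrowly, and the log2 fold change of 0.34 ± 0.14 (SE) had an adjusted p of 0.221 in edgeR.

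Timp1, an inhibitor of most secreted Mmp enzymes, measured 383, 449 and 359 CPM in young and 364, 499 and 210 CPM in old replicates 1 to 3. The groups overlapped, with a log2 fold change of -0.15 ± 0.30 (SE) that was 0.12 without old replicate 3. Timp3, the matrix-bound inhibitor that also acts on Adam17 and on aggrecan-cleaving Adamts enzymes, measured 4.16, 4.90 and 18.6 CPM in young and 2.63, 2.67 and 17.6 CPM in old replicates 1 to 3. Replicate 3 was high in each group, so the difference within a group was far larger than that between groups, and the log2 fold change of -0.27 ± 0.93 (SE) ran from -1.79 to 0.75 with 1 library left out. In the RefSeq annotation, Timp1 lies within Syn1 and Timp3 within Syn3, and 22 of the 47 members overlap some other gene, so that reads shared with those genes leave their counts uncertain, since the strand setting of the counting is not given in the sources used here.

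The promoters of Timp2 and Reck, the inhibitors at an unadjusted p under 0.05, are shown beside those of Mmp25 and Mmp3. Capitals mark GC boxes, read as GGGCGG on the printed strand or as CCGCCC where they lie on the other. They are at chr10:104089215-104089464 on the minus strand and at chr5:62898467-62898716 on the plus strand of GRCr8 (RefSeq), with 72% and 68.4% G and C.
Timp2: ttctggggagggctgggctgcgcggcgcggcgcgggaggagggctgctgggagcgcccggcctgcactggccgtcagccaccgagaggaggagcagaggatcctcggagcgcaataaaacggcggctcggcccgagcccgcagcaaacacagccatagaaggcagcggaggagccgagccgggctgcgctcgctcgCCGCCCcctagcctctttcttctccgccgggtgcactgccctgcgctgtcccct
Reck: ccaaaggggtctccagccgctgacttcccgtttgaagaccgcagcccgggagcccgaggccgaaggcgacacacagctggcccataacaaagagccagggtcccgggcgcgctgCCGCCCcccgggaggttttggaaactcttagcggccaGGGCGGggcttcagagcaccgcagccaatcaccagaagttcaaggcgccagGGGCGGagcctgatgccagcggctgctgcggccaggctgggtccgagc
The Timp2 window held 1 GC box, 54 to 49 bases before the start, and the Reck window held 3, with the nearest at 48 to 43 bases. Neither held the AP-1 or TATA letters that mark the Mmp3 promoter.

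The balance of enzyme and inhibitor transcripts was described by the ratio of their counts within a library, which no scaling between libraries affects. The pairs were chosen with the values known, so the ratios carry no test, and a ratio of counts also depends on transcript length. Mmp2 counts per Timp2 count were 2.31, 1.67 and 1.22 in young and 2.48, 5.13 and 2.88 in old replicates 1 to 3, with means of 1.73 ± 0.545 and 3.49 ± 1.43 (SD, n = 3). For Mmp14 per Timp2 they were 0.668, 0.598 and 0.773 in young and 0.828, 1.01 and 1.25 in old. In both ratios every old library was above every young one, with old replicate 1 nearest to the young range. Mmp2 per Timp1 count was 2.90 ± 0.775 in young and 11.2 ± 7.02 in old (SD, n = 3), again without overlap, from 2.20 to 3.73 and from 5.15 to 18.9. Mmp14 per Reck overlapped, with 4.33 to 6.98 in young and 6.47 to 16.2 in old libraries, as did Adam17 per Timp3 and Adamts5 per Timp3.

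**Figure D4:**
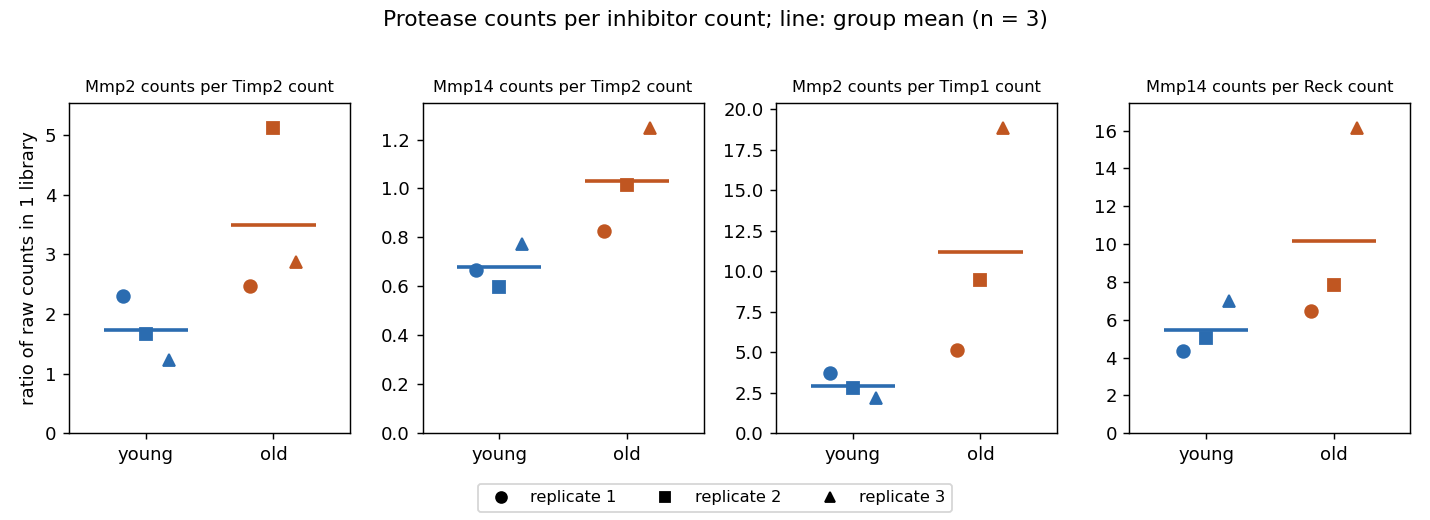
Ratio of raw counts of an enzyme to those of an inhibitor within each library (linear axis from 0), for young and old replicates 1 to 3 with lines at the group mean (n = 3). Mmp2 to Timp2, Mmp14 to Timp2 and Mmp2 to Timp1 are higher in every old library, and Mmp14 to Reck overlaps.

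Single libraries weighed on several of these comparisons, such as old replicate 3 on those of Mmp14 and Timp1. Old replicate 1 had the lowest value of the old group in 28 of 47 members, or 59.6%, while it was lowest in 36.7% of all genes. Of the 11 members at an unadjusted p under 0.05 it was the old library nearest to the young mean in 9, and old replicate 2 was nearest for Mmp25 and Adam23. The nearest library was not determined for other genes, so this share has no background beside it. Without old replicate 1 edgeR called 5 members beside 5.06% of all genes. These were Adamts10, Adamts15, Mmp14 and Mmp2 as higher, beside 1.58% of all genes, and Adamts8 as lower, beside 3.47%. DESeq2 then called 12 members beside 9.51% of all genes, 9 as higher beside 3.7% and 3 as lower beside 5.82%. Young replicate 3 was the lowest young library in 24 members (51.1%) and in 39.2% of all genes. Within groups the members varied more than genes at large, with a median coefficient of variation of 25.2% in young and 34.6% in old, against 11.8% and 16.8% over all genes.

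**Figure D5:**
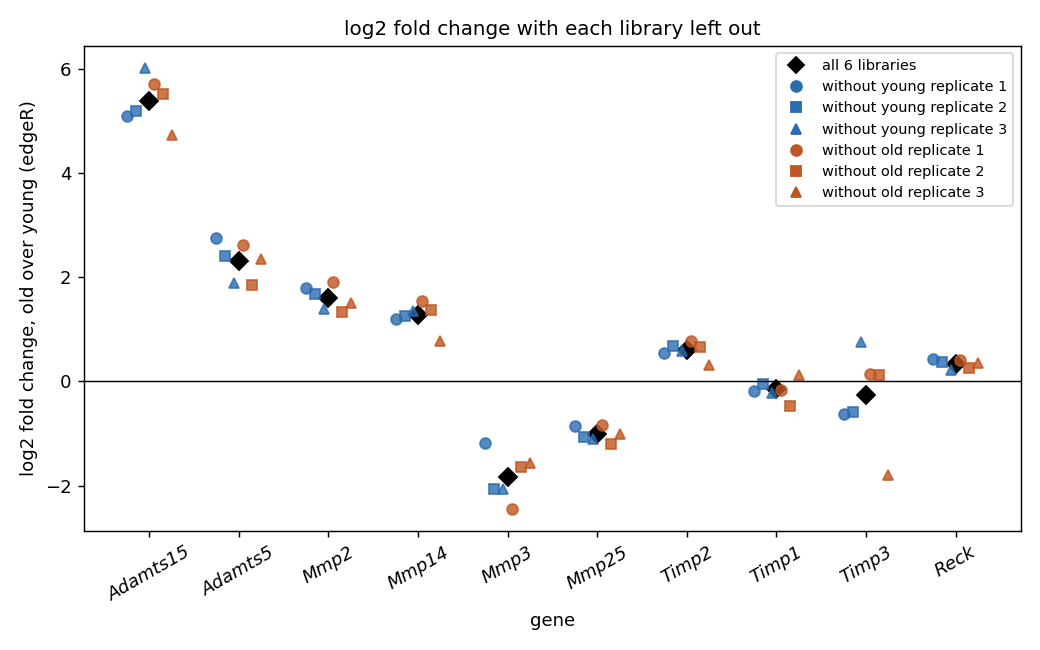
Log2 fold change (old over young, edgeR) of 10 members with all 6 libraries (diamonds) and after leaving out each of the 6 libraries. Adamts15, Adamts5, Mmp2, Mmp14, Timp2 and Reck stay positive and Mmp3 and Mmp25 negative in every subset, while Timp1 and Timp3 cross 0.

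A wider list of 51 genes was examined, of which 42 were measured. It held activators, cofactors and further inhibitors of these enzymes. It also held other proteases and their partners, such as Fap, Dpp4, Mme, Ece1, Bmp1, Tll1 and Pcolce, so its shares do not describe regulators of the members alone. Of these, 28 were higher and 14 lower in old cells, with 0.17 as the median log2 fold change, and 18 reached an unadjusted p under 0.05 in edgeR, 12 higher and 6 lower (42.9%, where all genes had 22.6%). edgeR called 0 at the adjusted threshold and DESeq2 called 6 (14.3%, beside 5.56% of all genes). Fap, a surface serine protease of activated fibroblasts, measured 12.2, 9.21 and 9.42 CPM in young and 22.3, 33.8 and 23.1 CPM in old replicates 1 to 3, all old values above the young ones, with a log2 fold change of 1.36 ± 0.21 (SE) and an adjusted p of 0.0557 in edgeR and 1.37e-06 in DESeq2. Its relative Dpp4 had 4, 0 and 2 counts in young and 40, 14 and 72 counts in old libraries, too few in young cells for a fold to be given. A2m, which traps proteases of many classes, was at 0.633 ± 0.526 CPM in young and 6.00 ± 4.92 CPM in old (SD, n = 3, adjusted p 0.115 in edgeR and 0.00065 in DESeq2).

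Tspan15 and Tll1, also on that list, had lower levels in old cells. Tspan15, a tetraspanin partner that directs Adam10 to its substrates, measured 2.75, 5.83 and 7.16 CPM in young and 1.37, 0.462 and 1.59 CPM in old replicates 1 to 3, lower in every old library. In Tspan15 the log2 fold change was -2.20 ± 0.56 (SE), with an adjusted p of 0.111 in edgeR and 0.00182 in DESeq2. Tll1, a procollagen C-proteinase, was at 223 ± 69.6 CPM in young and 60.8 ± 55.1 CPM in old (SD, n = 3). Its old libraries, at 39.6, 123 and 19.4 CPM in replicates 1 to 3, differed widely but all lay below the young ones. The adjusted p of Tll1 was 0.180 in edgeR and 0.0206 in DESeq2.

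Substrates that metalloproteinases cut or shed were listed as 69 genes, 60 of them measured. They showed no common direction, with 27 higher, 33 lower and -0.07 as the median log2 fold change, and 16 reached an unadjusted p under 0.05 in edgeR, 8 in each direction (26.7% beside 22.6% of all genes). DESeq2 called 8 (13.3%, beside 5.56% of all genes), of which 4 were higher and 4 lower (2.25% and 3.31% of all genes). Acan, the aggrecan core protein that Adamts5 and Adamts15 cut, measured 144, 373 and 288 CPM in young and 23.8, 5.71 and 3.77 CPM in old replicates 1 to 3. Every old library was far below the young ones, opposite in direction to both proteases, and the log2 fold change of -4.60 ± 0.83 (SE) had an adjusted p of 0.0648 in edgeR and 9.51e-10 in DESeq2. Vcan, the related versican, had a log2 fold change of 0.41 and overlapping groups, and was named here after its value was seen.

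Among the other substrates, Igfbp4, a binding protein of insulin-like growth factors, measured 53.3, 30.6 and 12.6 CPM in young and 187, 147 and 164 CPM in old replicates 1 to 3. Igfbp5, of the same family, was at 115 ± 96.1 CPM in young and 14.1 ± 13.3 CPM in old (SD, n = 3). These relatives differed in opposite directions, with log2 fold changes of 2.37 ± 0.49 and -3.02 ± 0.92 (SE), and DESeq2 called each (adjusted p 1.97e-05 and 0.0362). Col3a1, a fibrillar collagen chain, was at 13068 ± 2716 CPM in young and 32351 ± 9242 CPM in old (SD, n = 3), with an adjusted p of 0.111 in edgeR and 5.74e-05 in DESeq2. Hbegf, a growth factor released by Adam17, measured 45.8, 59.6 and 87.6 CPM in young and 33.5, 20.7 and 14.9 CPM in old replicates 1 to 3, all old values below the young ones. The tumor necrosis factor receptor gene Tnfrsf1b, whose product Adam17 also releases, was at 15.2 ± 5.77 CPM in young and 32.3 ± 7.80 CPM in old (SD, n = 3).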

How the data were processed

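RNA of cultured VSM cells was measured in 6 libraries, 3 young and 3 old, each from a separate rat. The authors deposited raw gene counts, whole numbers per gene and library with no normalization. Per the labels and the methods, reads were trimmed (cutadapt 3.5, Trim Galore 0.6.7; quality reports by FastQC 0.11.9 and MultiQC 1.27.1), aligned with STAR 2.7.10b to the rat assembly Rnor 6.0 and counted with featureCounts (Subread 2.0.8), and DESeq2 1.46.0 was the authors' test. The table holds 14475 genes, 1518 of them without a symbol, and every gene reaches 10 counts in 3 or more libraries. No read was re-aligned, and 0 sample columns were left unused.

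Counts were scaled by TMM and fitted over all genes with edgeR 4.0.16 under R 4.3.3, using the quasi-likelihood F test and p-values adjusted by Benjamini-Hochberg. Standard errors equal the size of the log2 fold change over the root of F, and CPM use the TMM library size. The call thresholds were 0.05 for the adjusted p and 1 for the size of the log2 fold change. Alternatives were DESeq2 1.42.0 (292 genes with no adjusted value) and limma-voom from limma 3.58.1, with other scalings, filters and thresholds. Further ones were the edgeR likelihood ratio test, a replicate block, halved counts and each library left out. Scripts were tested on simulated data. Values per library are given for members at an unadjusted p under 0.05 whose log2 fold change was 1 or more in size, members called by DESeq2, the main sheddases and inhibitors, and the 3 members with the highest level in each subfamily. Other members are given more briefly, except Adam23, Adamts7, Adamts8, Adamts10, Adamts14, Mmp16 and Mmp19, whose library values were added after being seen. From the 2 wider lists, genes at an unadjusted p under 0.05 with a log2 fold change of 1 or more in size were named, at most the 6 lowest p per list. Members and lists were chosen with earlier results of these data known. Motifs were searched in RefSeq promoter sequences (GRCr8), and CPM of different genes were used without transcript lengths only to pick the highest members and to sum markers. A gene that the naming rule also covered is not reported here.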

Additional observations from a re-analysis of the deposited data

How the results depend on the processing

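The number of genes called depended on the test. Against 1 of 14475 genes in edgeR's quasi-likelihood test, DESeq2 called 805, the edgeR likelihood ratio test 724, limma-voom 0 and edgeR at an adjusted p under 0.1 called 381. With 1 library left out, edgeR called 0 to 732 genes. DESeq2 called 737, 551 and 600 without young replicates 1 to 3 and 1377, 614 and 651 without old replicates 1 to 3. Of the members, edgeR called 0, DESeq2 6, the likelihood ratio test 4, and edgeR at an adjusted p under 0.1 called 1. With 1 library left out, edgeR called 0 to 5 members, 5 of them without old replicate 1, and DESeq2 called 3 to 12, with 7 without old replicate 2. Members at an unadjusted p under 0.05 numbered 8 to 20, with 20 without old replicate 1 against 11 over all libraries. No share of all genes was set beside these subset counts. Calls over all genes also rose without old replicate 1, from 1 to 732 in edgeR, so the rise is not particular to the members. The median log2 fold change of the Timp genes was 0.58 without young replicate 3, and it ran from -0.18 to 0.58 with 1 library left out. Those of the Mmp, Adam, Adamts and Adamtsl genes moved by less than the spread between replicates in all 15 alternatives, although that of the Mmp genes, -0.14, became 0.031 without old replicate 2 and 0.02 among genes with a mean of at least 1 CPM. Signs changed in genes with log2 fold changes near 0 or with 1 library far from its group. With 1 library left out, the log2 fold change ran from -0.11 to 0.25 for Adam17, from -0.14 to 0.088 for Adam9, from -0.53 to 0.85 for Adamts1, from -0.30 to 0.071 for Adamts6, from -0.20 to 0.16 for Adamtsl4, from -0.47 to 0.12 for Timp1 and from -1.79 to 0.75 for Timp3. For Adamtsl4 it was also 0.0043 with library size only, 0.0070 in limma-voom and 0.0044 with the replicate block. Scaling by RLE size factors changed the sign of 0 members. The causes were not tested. The labels number the replicates 1 to 3 in each group without saying that a number is shared. Deviations from the group mean correlated between same-numbered libraries by 0.063, 0.322 and 0.313 over 12257 genes, which did not pair them throughout. With the replicate number as a block, edgeR called 1 gene, which was Adamts15 (adjusted p 0.00869, log2 fold change 5.38). Depth limits Adam8, Adamts8, Adamts17, Adamtsl2, Mmp3, Mmp9, Mmp15 and the young values of Adamts15, which rest on few counts. To a lesser degree it limits Adam1a and Mmp25.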
